A study of Homo sapiens with 8 samples.

Results

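The mRNAs described here encode receptors, ligands and basic helix-loop-helix factors of the Notch pathway. These are the receptors NOTCH1, NOTCH2 and NOTCH3, the ligands DLL1, DLL3, JAG1 and JAG2, and the factors HES1, HES6 and HEY1. They were chosen by name, and all 10 were found among the 67060 genes of the deposited count table. RNA sequencing had been done on SH-SY5Y, a human neuroblastoma cell line that the labels call a neuronal progenitor. Cells grown to 80% confluence received 0.5 ul of adenovirus and were harvested for RNA 48 h later. In the 4 libraries called ERRg the virus carried BioID-Flag-ERRg, a biotin ligase joined to the orphan nuclear receptor estrogen-related receptor gamma. In the 4 libraries called GFP it carried BioID-GFP-NLS, the same ligase joined to a green fluorescent protein that is targeted to the nucleus. Both groups therefore shared the cell line, the virus type and the ligase, and no library without virus was analysed here. All libraries came from 1 cell line, and the labels do not say that replicates were separate cultures, so each p-value speaks only to the spread among these 8 libraries, and that spread could be technical.

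Notch is a receptor on the cell surface that is activated by ligands of the Delta and Jagged families on a neighbouring cell. Binding exposes the receptor to a metalloprotease and then to gamma-secretase, and the released intracellular domain enters the nucleus and joins the DNA-binding protein RBPJ and a Mastermind coactivator. The best known direct targets are genes of the HES and HEY families, repressors that hold back neuronal differentiation in the nervous system, where the pathway keeps neighbouring progenitors from differentiating at the same time.

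The promoter of HES1 is the textbook example of a Notch-responsive promoter, and it is shown with that of NOTCH3, which had the largest fall of the group with the standard scaling of library sizes (TMM) but not with the offsets described below, where HEY1 had it. Of the 10 genes, 7 had a promoter in the RefSeq table (GRCh38.p14): NOTCH1, NOTCH2, NOTCH3, JAG1, JAG2, HES1 and HES6. DLL1, DLL3 and HEY1 did not. The 250 bases before the annotated start were searched on both strands for TGGGAA, the core bound by RBPJ, for AAGGTCA, the core of the element bound by estrogen-related receptors, and for CACNAG, the N-box bound by HES proteins. Capitals mark the matches, and each sequence runs 5′ to 3′ on the gene's strand. HES1 lies on the plus strand, with this window at chr3:194135898-194136147, and NOTCH3 on the minus strand, with its window at chr19:15200996-15201245.
HES1: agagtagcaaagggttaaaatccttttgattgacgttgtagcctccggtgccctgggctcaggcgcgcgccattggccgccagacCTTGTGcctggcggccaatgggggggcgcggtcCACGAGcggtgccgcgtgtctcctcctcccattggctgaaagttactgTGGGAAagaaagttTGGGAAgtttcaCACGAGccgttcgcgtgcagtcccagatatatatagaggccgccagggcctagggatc
NOTCH3: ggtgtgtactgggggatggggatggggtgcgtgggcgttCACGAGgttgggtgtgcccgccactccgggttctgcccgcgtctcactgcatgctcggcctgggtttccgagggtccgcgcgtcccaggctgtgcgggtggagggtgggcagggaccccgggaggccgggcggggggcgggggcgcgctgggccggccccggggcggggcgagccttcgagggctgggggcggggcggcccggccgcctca
HES1 held 2 copies of TGGGAA, at 84 to 79 and at 70 to 65 bases before the start, and 3 matches to CACNAG. NOTCH3 held 1 match to CACNAG and no TGGGAA. The windows of NOTCH1, NOTCH2, JAG1, JAG2 and HES6 held none of these motifs, and AAGGTCA was found in none of the 7. Among 35116 RefSeq promoters cut to the same window, 20.9% held TGGGAA, 32.04% held CACNAG and 3.44% held AAGGTCA. A match describes the letters and is not evidence of binding. The windows of NOTCH3 and HES1 held 78% and 59.2% G and C, where the median of all promoters was 58%.

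Every gene of the group that had reads was lower in the ERRg libraries with TMM. Of the 9 that had reads, all 9 were lower by edgeR at an adjusted p under 0.05 and none was higher, and in all 9 the 4 ERRg libraries lay below the 4 GFP libraries. This has to be read against the whole transcriptome, in which 74.7% of the 21993 genes tested were called, 35.9% as lower and 38.8% as higher, and in which 34.6% were lower without overlap. The median log2 fold change (ERRg over GFP) of the 9 genes was -1.33, and that of all genes tested was 0.09. The 9 are coding genes, whereas all genes tested include non-coding ones. Coding genes alone, split into deciles by GC content, had TMM medians from 0.62 (decile 1, lowest GC) to -1.33 (decile 10). Deciles 5 and 6 were at -0.21 and -0.50. The same limit holds for each TMM share over all genes given below. Against a log2 fold change of 1, NOTCH1, NOTCH3, DLL3 and HEY1 were called lower, where 10.5% of all genes were. Across coding genes, fold changes were lower the higher the GC content of the transcript. Each gene is therefore also given in a second fit of 13413 coding genes, with offsets for the trend with GC content, transcript length and gene span. The offsets reduced the trend with GC content but left some of it. Decile medians then ran from 0.04 (decile 1) to -0.16 (decile 9), with -0.11 in decile 6. In that fit 6 of the 9 were lower and 0 higher (median -0.29), where 41.4% of coding genes were lower and 30.7% higher (median -0.07): NOTCH1, NOTCH2, NOTCH3, JAG1, HES1 and HEY1 were called, and DLL3, JAG2 and HES6 were not. When each library's outside-exon read share was added to the TMM model, 0 of the 9 were called, where 0.0364% of all genes were. Their standard errors were then 0.46 to 1.08, against 0.083 to 0.25 without it, and JAG1 was at -0.59, DLL3 at -1.21, HEY1 at -0.86, NOTCH3 at -0.84, NOTCH1 at -0.79, JAG2 at -0.78 and NOTCH2 at -0.19, while HES1 (0.24) and HES6 (0.59) changed sign.

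**Figure D1:**
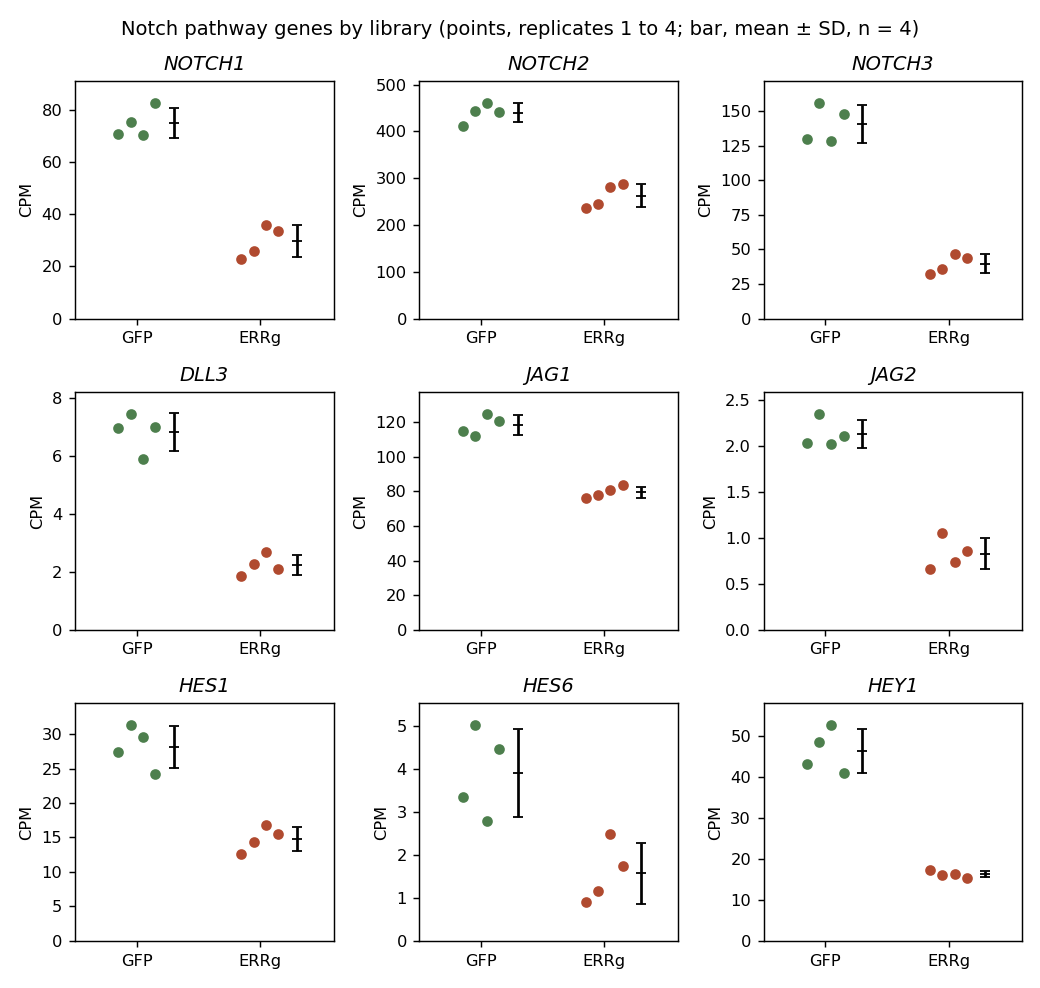
Level of each gene in counts per M reads (CPM, scaled to TMM effective library sizes) in the 8 libraries, as points in replicate order from left to right, with the mean and SD of each group (n = 4) as a bar; each vertical axis starts at 0. In all 9 panels the highest ERRg point lies below the lowest GFP point, with the narrowest gap for HES6 (2.50 against 2.81 CPM).

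The libraries differed in more than these genes. ESRRG, which the ERRg virus carries, had 32.7 to 37.1 CPM in the GFP libraries and 711 to 888 CPM in the ERRg libraries, a 23.2-fold difference of the means in the direction of the labels (two-sided exact permutation p = 0.0286, which is the lowest that 4 against 4 can give). Gene reads per library numbered 27.7 to 35.5 M in GFP and 21.02 to 23.0 M in ERRg. Reads outside annotated exons made up 16.2% to 24.2% of all reads in GFP and 45.5% to 48.3% in ERRg. The noradrenergic markers PHOX2A, HAND2, GATA3, ISL1 and DBH, which define this line, were all read, and their sum with TH (listed at 0) was 541 to 618 CPM in GFP and 319 to 377 CPM in ERRg, with 4 of 5 tested genes lower (35.9% of all genes were). With the offsets 1 of the 5, DBH, was lower (-1.22) and 2 were higher, HAND2 (0.21, edgeR adjusted p = 0.00194) and ISL1 (0.12, adjusted p = 0.0453), while PHOX2A (-0.01) and GATA3 (0.10) were not called. Fibroblast markers, several of which neuroblastoma cells express, summed to 286 to 324 CPM in GFP and 133 to 149 CPM in ERRg. With TMM 5 of 6 were lower and 1, LUM (0.34), was higher, where 35.9% of all genes were lower and 38.8% higher. With the offsets 5 were lower and 0 higher, where 41.4% of coding genes were lower and 30.7% higher. Schwann cell markers summed to at most 3.82 CPM, endothelial markers to at most 2.56 CPM and blood markers to at most 0.468 CPM in any library, with CD3E at 0. The part of these differences in the results below was not tested, and in bulk RNA fewer cells of a kind and less RNA per cell cannot be told apart.

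Among the receptors, NOTCH3 fell most, and with TMM NOTCH1 came next and NOTCH2 last, while with the offsets NOTCH1 fell least. NOTCH3 (ENSG00000074181.9, chromosome 19 from 15159038 to 15200981, minus strand), a receptor best known from vascular smooth muscle, was at 130, 156, 128 and 148 CPM in GFP and at 32.3, 36.1, 46.9 and 43.5 CPM in ERRg (replicates 1 to 4 throughout). The groups lay far apart, the highest ERRg library holding less than any GFP library. Its mean fell 3.54-fold, from 141 ± 13.7 to 39.7 ± 6.67 CPM (SD, n = 4 each), with a log2 fold change of -1.82 (SE 0.11, edgeR adjusted p = 8.08e-11). With the offsets it remained the receptor with the largest fall (-0.87, SE 0.05, adjusted p = 8.07e-11).

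NOTCH1 (ENSG00000148400.12, chromosome 9 from 136494433 to 136545786, minus strand), the receptor most studied in neural progenitors, was at 70.9, 75.2, 70.3 and 82.8 CPM in GFP. In ERRg it was at 23.04, 26.0, 35.9 and 33.7 CPM, replicates 1 and 2 being lower than replicates 3 and 4. NOTCH1 fell by 1.33 on the log2 scale (SE 0.12, edgeR adjusted p = 3.73e-09). With the offsets it was -0.43 (SE 0.06, adjusted p = 8.01e-06), and with an offset for GC content alone -0.17 (adjusted p = 0.0297), so the size of the fall depended on this choice more than on the spread of replicates.

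NOTCH2 (ENSG00000134250.20, chromosome 1 from 119911553 to 120069626, minus strand), a receptor broadly made in many tissues, was the most abundant of the 3. It was at 412, 443, 461 and 442 CPM in GFP and at 237, 246, 281 and 287 CPM in ERRg. The groups did not overlap, and replicates 1 and 2 of ERRg were again below replicates 3 and 4. NOTCH2 fell by 0.74 on the log2 scale (SE 0.09, edgeR adjusted p = 2.82e-07), and with the offsets it was -0.69 (SE 0.05, adjusted p = 2.53e-09). With an offset for GC content alone it was -0.37 (adjusted p = 1.12e-05), and with library totals -0.34 (adjusted p = 0.00140). The call held in each of these fits, but the size of the fall depended on the choice. NOTCH2 has near-identical partial copies, the NOTCH2NL genes, and reads that fit more than 1 copy may be missing from its count.

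Among the ligands, JAG1 was the main one in both groups, and with TMM the less abundant DLL3 and JAG2 had larger fold changes, which with the offsets were no longer called. JAG1 (ENSG00000101384.12, chromosome 20 from 10637684 to 10673999, minus strand), a Jagged-family activating ligand, was at 115, 112, 125 and 121 CPM in GFP. It was at 76.3, 77.8, 80.6 and 83.5 CPM in ERRg, below GFP and with little spread. The fall of -0.57 on the log2 scale (SE 0.08, edgeR adjusted p = 3.46e-06) was the smallest of the 9 with TMM, and -0.21 was left with the offsets (SE 0.05, adjusted p = 0.00143). The call ended when library totals replaced TMM (-0.17, adjusted p = 0.0922), a scaling under which the median of all genes was 0.496.

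DLL3 (ENSG00000090932.11, chromosome 19 from 39498895 to 39508481, plus strand) is a divergent Delta-family member that acts inside the cell that makes it and inhibits Notch. It was at 6.96, 7.45, 5.901 and 6.998 CPM in GFP and at 1.85, 2.25, 2.67 and 2.11 CPM in ERRg, on 45 to 65 reads per ERRg library. The groups stood well apart, with a log2 fold change of -1.62 (SE 0.16, edgeR adjusted p = 9.63e-09). With the offsets the call ended narrowly (-0.29, SE 0.13, adjusted p = 0.0506), while with GC content alone it held (-0.36, adjusted p = 0.0180).

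JAG2 (ENSG00000184916.9, chromosome 14 from 105140981 to 105168824, minus strand), the second Jagged-family ligand, was the least abundant of the measured genes. It was at 2.03, 2.35, 2.01 and 2.099 CPM in GFP and at 0.658, 1.05, 0.739 and 0.854 CPM in ERRg, which rested on 16 to 28 reads per ERRg library. It fell by 1.35 on the log2 scale (SE 0.22, edgeR adjusted p = 1.33e-05), and the call ended with the offsets (-0.26, SE 0.22, adjusted p = 0.283). Its exons share 469 bases with a non-coding gene on the same strand, AL512356.1, where reads cannot be given to either gene alone.

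DLL1 (ENSG00000198719.9), a Delta-family activating ligand on chromosome 6 from 170282206 to 170306565, is listed at 0 in all 8 libraries and was not tested. The tubulin gene TUBB and FLOT1, both widely expressed, read 0 in every library as well, and for that reason DLL1 is not taken to be absent.

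**Figure D2:**
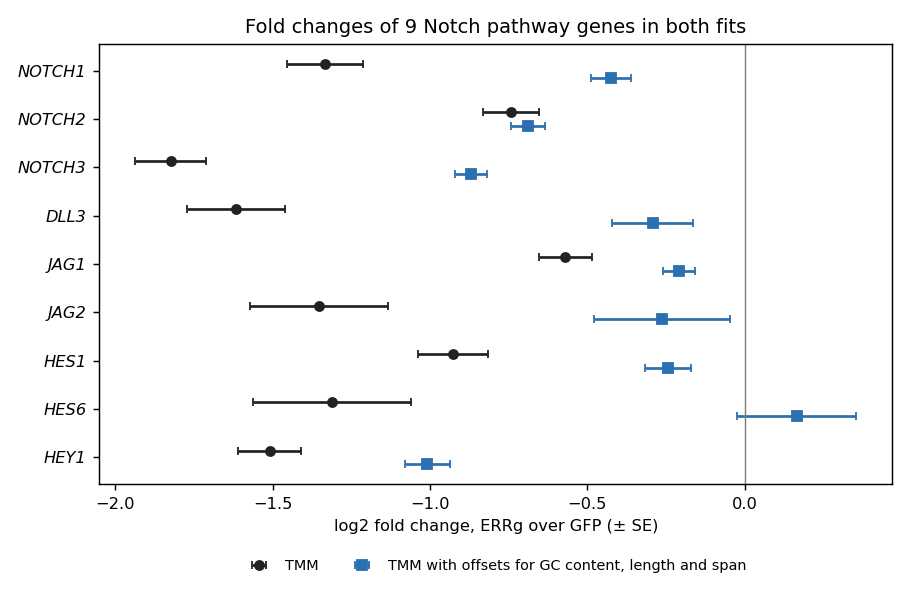
Log2 fold change, ERRg over GFP, of the 9 genes with reads, with its standard error, by edgeR with TMM (circles) and with added offsets for GC content, transcript length and gene span (squares). With the offsets NOTCH2 stayed close to its first value (-0.74 and -0.69), HEY1 and NOTCH3 had the largest falls (-1.01 and -0.87), and HES6 moved to the other side of 0 (0.16).

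Among the basic helix-loop-helix genes HEY1 fell most. HEY1 (ENSG00000164683.18, chromosome 8 from 79764010 to 79767863, minus strand), a repressor of the HES-related family and a direct Notch target, was at 43.1, 48.6, 52.7 and 40.9 CPM in GFP. In ERRg it was at 17.3, 16.001, 16.4 and 15.4 CPM, 4 libraries that nearly coincide. The mean fell 2.85-fold, with a log2 fold change of -1.51 (SE 0.10, edgeR adjusted p = 1.27e-10). With the offsets it had the largest fall of the 9 genes (-1.01, SE 0.07, adjusted p = 8.28e-10), and with GC content alone it was -1.29 (adjusted p = 9.22e-11).

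HES1 (ENSG00000114315.4, chromosome 3 from 194136145 to 194138732, plus strand), the repressor whose promoter is printed above, was at 27.4, 31.3, 29.5 and 24.2 CPM in GFP. It was at 12.6, 14.3, 16.7 and 15.4 CPM in ERRg, with no overlap. It fell 1.90-fold in the mean, with a log2 fold change of -0.93 (SE 0.11, edgeR adjusted p = 1.92e-07). With the offsets the value was -0.25 (SE 0.07, adjusted p = 0.00583), and with GC content alone -0.51 (adjusted p = 9.02e-06).

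HES6 (ENSG00000144485.11, chromosome 2 from 238238267 to 238240662, minus strand) differs from its relatives in that it inhibits HES1 and favours neuronal differentiation. It was at 3.35, 5.04, 2.81 and 4.49 CPM in GFP and at 0.905, 1.16, 2.503 and 1.75 CPM in ERRg, on 22 to 61 reads per ERRg library. Its replicates scattered more than those of the other genes, ERRg replicate 3 coming close to GFP replicate 3. With TMM it fell by 1.31 on the log2 scale (SE 0.25, edgeR adjusted p = 9.32e-05), and with the offsets it was 0.16 (SE 0.19, adjusted p = 0.445), so that neither the call nor the direction held.

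Levels can be compared between genes only per length, here as CPM per kb of annotated exons, a scale on which NOTCH2 stood first in both groups. In GFP its level was 26.2 ± 1.23, followed by NOTCH3 (14.96 ± 1.45), HEY1 (14.3 ± 1.66), HES1 (13.6 ± 1.49) and JAG1 (12.7 ± 0.615), 4 genes whose neighbours in this order had overlapping libraries. NOTCH1 (7.21 ± 0.554), DLL3 (2.61 ± 0.251), HES6 (1.92 ± 0.501) and JAG2 (0.332 ± 0.0239) came after (SD, n = 4 each), of which DLL3 and HES6 overlapped. In ERRg the order after NOTCH2 (15.6 ± 1.502) was JAG1 (8.56 ± 0.344), HES1 (7.17 ± 0.845), HEY1 (5.04 ± 0.239), NOTCH3 (4.23 ± 0.7102) and NOTCH1 (2.86 ± 0.592), where HEY1 overlapped NOTCH3 and NOTCH3 overlapped NOTCH1. NOTCH3 thus went from the second place to the fifth and JAG1 from the fifth to the second. When the longest transcript replaced all annotated exons as the length, NOTCH3 took the fifth place in both groups and JAG1 went from the third place to the second.

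**Figure D3:**
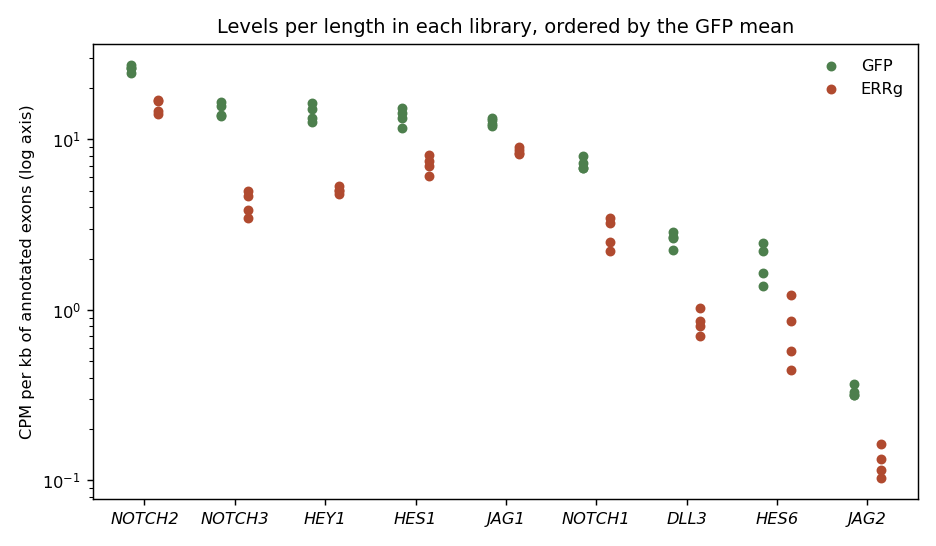
Level per length (CPM per kb of annotated exons, log axis) of the 9 genes with reads in each of the 4 GFP and 4 ERRg libraries, ordered by the GFP mean. NOTCH2 is highest in both groups, NOTCH3 drops below JAG1 and HES1 in ERRg, and JAG2 is lowest in all 8 libraries.

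The makeup within each role shifted as the members fell by unequal amounts. Of the summed receptor level per length, NOTCH2 held 52.5% to 57.4% in GFP and 66.5% to 71.3% in ERRg, while NOTCH3 held 28.5% to 33.1% and 17.4% to 19.8%. NOTCH1 held 14.1% to 15.9% and 11.2% to 13.7%. Of the 3 measured ligands, JAG1 held 79.0% to 83.9% in GFP and 88.4% to 91.01% in ERRg. Of the 3 basic helix-loop-helix genes, HEY1 held 46.005% to 51.0% in GFP and 35.2% to 44.9% in ERRg, and HES1 held 44.1% to 47.04% and 51.4% to 57.1%. None of these ranges overlapped between the groups, while HES6, at 4.305% to 8.29% and 3.73% to 8.52%, did. These shares do not depend on the scaling of libraries, but they do on the GC content of the genes, which is 63.1% in NOTCH3 and 49.4% in NOTCH2.

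The falls can be read against coding genes of like GC content. NOTCH1, NOTCH3, DLL3, JAG2 and HES6, whose longest transcripts hold 62.9% to 68.4% G and C, belong to the decile of coding genes with the highest GC content, which had a median log2 fold change of -1.33. NOTCH1 (-1.33), JAG2 (-1.35) and HES6 (-1.31) lay at that median, and NOTCH3 (-1.82) and DLL3 (-1.62) below it. NOTCH2, JAG1 and HES1 belong to decile 6 of 10 (48.02% to 51.3%), with a median of -0.50, and lay at -0.74, -0.57 and -0.93. HEY1, at 47.3% GC, lay at -1.51 where the median of its decile was -0.21. These distances are descriptions, with no test.

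**Figure D4:**
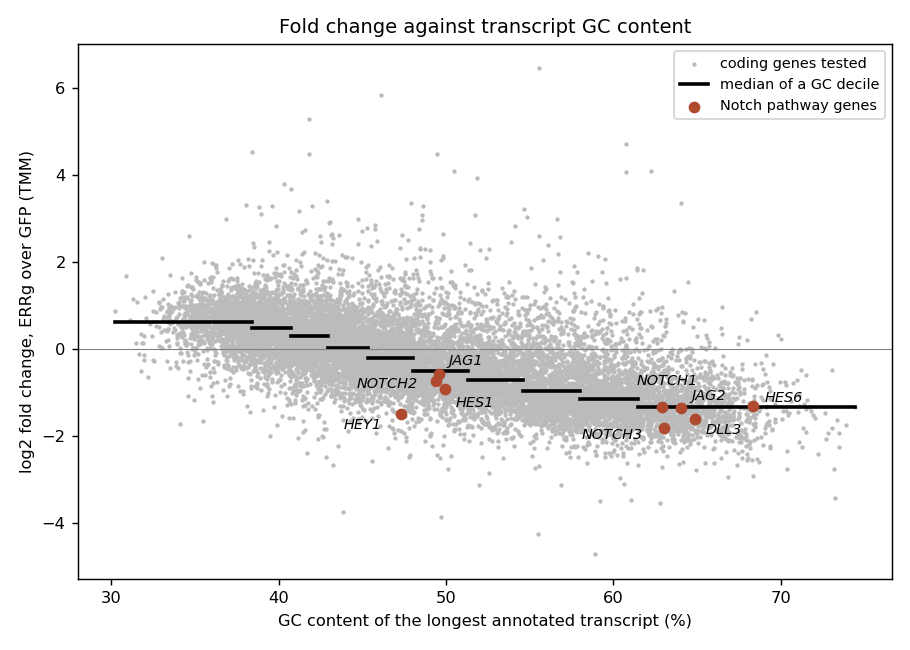
Log2 fold change, ERRg over GFP (TMM), against the GC content of the longest annotated transcript for the 13413 coding genes tested (grey), with the median of each decile of genes by GC content (black lines) and the 9 Notch pathway genes (red). HEY1 (-1.51) lies farthest below the median of its decile (-0.21), and NOTCH1, JAG2 and HES6 lie on the line of the highest decile (-1.33).

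The other genes of the pathway moved in both directions, more of them lower than higher. Of 72 listed, 54 were tested, and 74.1% of these were called, where the share of all genes was 74.7%. By direction, 10 were called higher and 30 called lower (median log2 fold change -0.42). Over all genes, non-coding ones included, 38.8% were higher and 35.9% lower, while the 54 are coding genes. The offset fit called 13 of them higher and 24 lower (median -0.11), where 30.7% of coding genes were higher and 41.4% lower. DLK1, a non-canonical ligand that inhibits Notch, fell from 6.12 ± 0.660 to 0.943 ± 0.359 CPM, which is -2.696 on the log2 scale (SE 0.21, edgeR adjusted p = 6.03e-10) and -1.84 with the offsets. DNER, a neuronal non-canonical ligand, rose from 1.66 ± 0.547 to 2.99 ± 0.224 CPM (0.84, adjusted p = 0.00137, and 1.09 with the offsets). NOTCH4 and DLL4, which mark endothelium, had at most 3 reads in any library. NOTCH4 starts at 32194843 on chromosome 6, where TUBB (from 30720201), FLOT1 (from 30727709) and DLL1 (from 170282206), listed at 0, also lie. Other genes of chromosome 6 were read, such as HDAC2 (185 CPM in GFP) and L3MBTL3 (54.5 CPM in GFP). The reason for the low counts was not tested, and NOTCH4 is not taken to be absent.

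Among enzymes that add sugars to the receptor or cleave it, some genes were lower and some higher; each count below stands against 35.9% lower and 38.8% higher over all genes, or 41.4% and 30.7% over coding genes with the offsets. In glycosylation 4 of 7 were lower and 2 higher, and the offset fit called 3 lower and 1 higher, around a median of 0.017: the Fringe genes RFNG and LFNG, which tune the choice of ligand, were lower, RFNG at -2.08 (SE 0.15) and LFNG at -1.63 (SE 0.17) in log2 fold change, and at -0.67 and -0.46 with the offsets. In cleavage 5 of 9 were lower and 2 higher, and with the offsets 7 were lower and 1 higher. FURIN, the protease that matures the receptor, fell from 159 ± 9.52 to 50.6 ± 10.1 CPM (-1.65, edgeR adjusted p = 1.88e-10, and -0.55 with the offsets). APH1A, a subunit of gamma-secretase, fell from 322 ± 50.6 to 107 ± 18.7 CPM (-1.59, and -0.58 with the offsets).

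Genes on the nuclear side of the pathway moved in both directions. RBPJ, the DNA-binding partner of Notch, was at 66.1 ± 4.24 CPM in GFP and 78.5 ± 3.31 CPM in ERRg, higher with TMM (0.25, edgeR adjusted p = 0.0128) and lower with the offsets (-0.44, adjusted p = 1.14e-06), so its direction was not settled. In the nuclear complex 2 of 7 were higher and 2 lower with TMM, and 2 higher and 3 lower with the offsets. The lower ones with TMM were the acetyltransferase KAT2A (-1.33, and -0.18 with the offsets) and the coactivator MAML3 (-0.60 and -0.30). MAML3 was not called with library totals (-0.20, adjusted p = 0.0739) or with the offset for GC content alone (0.011, adjusted p = 0.876). Of 13 corepressor genes 8 were lower and 1 higher, and with the offsets 6 were lower and 2 higher. Of them CTBP1 (-1.03) was not called with the offsets (adjusted p = 0.0921) while HDAC1 fell with TMM (-0.77) and with the offsets (-0.50). Of 11 genes of trafficking and turnover 6 were lower and 2 higher, a balance that turned with the offsets to 3 lower and 4 higher (median 0.0054). NUMBL, a relative of the Notch inhibitor NUMB, was at -1.22 and, with the offsets, at -0.23, and DTX3 was at -1.23 but was not called with the offsets (adjusted p = 0.231).

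Other HES, HEY and feedback genes were scarce. HES4, HES7 and NRARP were tested and all 3 were lower with TMM, NRARP, a feedback inhibitor of Notch, with a log2 fold change of -1.03 (SE 0.21) from 2.703 ± 0.524 CPM and HES4 with one of -1.76 (SE 0.40) from 1.001 ± 0.216 CPM. With the offsets neither was called (NRARP 0.41, edgeR adjusted p = 0.0651, and HES4 -0.13, adjusted p = 0.793). HES4 had only 10, 2, 4 and 13 reads in ERRg and passed the filter for low counts through its GFP libraries. HES7, a segmentation-clock repressor, turned from -0.60 (SE 0.26, edgeR adjusted p = 0.0398) to 0.73 with the offsets, where it was called higher (adjusted p = 0.00922), and was not called with library totals (-0.19, adjusted p = 0.497), so none of the 3 was called lower in both fits. HES2, HES3, HES5, HEY2 and HEYL had at most 3 reads in any library. Of the 9 listed proneural factors, NEUROG2 alone was tested. NEUROG2 had 19, 34, 24 and 17 reads in GFP and 0, 0, 4 and 0 reads in ERRg (log2 fold change -4.26, SE 0.61, edgeR adjusted p = 2.56e-06, and -3.34 with the offsets, adjusted p = 1.05e-04). It passed the filter for low counts only through its GFP libraries, so only a fall could be called. The size of that fall rests on ERRg counts at or near 0.

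**Figure D5:**
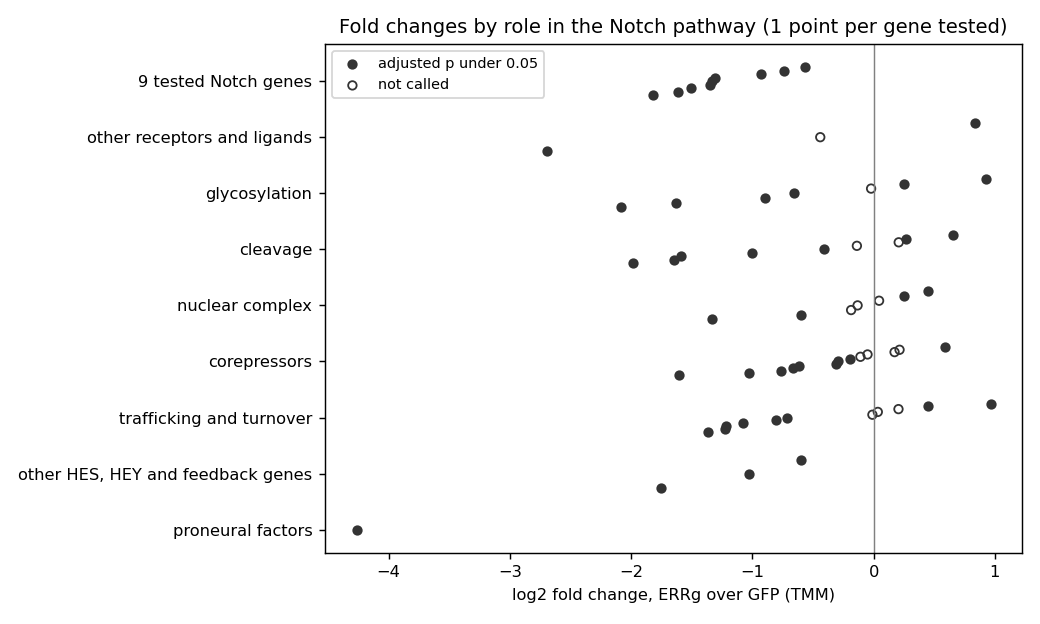
Log2 fold change, ERRg over GFP (TMM), of each tested gene by its role in the Notch pathway, filled where the edgeR adjusted p was under 0.05 and open where it was not. The 9 genes described first all lie below 0. Of the other 54 tested genes 10 were called higher and 30 lower, where 38.8% of all genes were higher and 35.9% lower.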

How the data were processed

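The table deposited by the authors holds unnormalised counts for 8 libraries. The submitters' processing notes name HTSeq 0.11.3, STAR 2.7.8a, Trim Galore 0.6.6, DESeq2 and CASAVA, and GRCh38 as build; for the annotation release and the strand setting, nothing is given in the sources used here. Per the labels' protocols, libraries were depleted of ribosomal RNA and directional. The 5 summary lines that name no gene were left out of library sizes; reads outside exons among them are given in the report, reads in more than 1 gene were 12.1% of all in GFP and 5.44% in ERRg, and reads aligned more than once 11.9% and 6.41%. A name table gave symbols for 60463 identifiers. Positions, GC content and lengths came from GENCODE release 29 (GRCh38).

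Counts were compared with edgeR 4.0.16 in R 4.3.3 (quasi-likelihood test, two-sided, TMM, filterByExpr, group as the sole term, Benjamini-Hochberg over 21993 genes, called under 0.05). TMM is the trimmed mean of M-values, and CPM uses TMM effective sizes, where 1 CPM is at least 24.3 reads. For the offsets, each library's deviation of log2 CPM (prior count 2) from the gene mean was fitted on natural splines (5 degrees of freedom) of GC content, length and span of coding genes. DESeq2 1.42.0 and limma 3.58.1 were alternatives. The 10 genes and all lists were chosen with earlier results of these data known; other pathway genes were named as the 2 with the smallest p per role, plus RBPJ and DLK1, and genes given only as a read count are additional. Some listed genes are not reported here and were left out of the lists.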

Additional observations from a re-analysis of the deposited data

How the results depend on the processing

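All 9 genes stayed lower and called by edgeR when any 1 of the 8 libraries was left out, and 9 were called lower in each such fit. Without 1 library, 7 to 12 of the other pathway genes were higher and 29 to 33 lower, and of all genes 7611 to 8518 were higher and 7755 to 8247 lower. ERRg replicates 1 and 2 resembled each other more than the other ERRg libraries (chi-square per gene 2.72, and 4.54 between 3 and 4, against 8.74 to 19.5 across). Leaving out either pair, chosen after seeing the data, kept all 9 lower calls, and without replicates 1 and 2 the other pathway genes called higher numbered 6. With the replicate number as a block, 9 of the 9 were lower and none lost its call, with 8191 genes higher and 7653 lower; same-numbered libraries did not deviate together (correlations -0.158 to 0.0878). The test against a log2 fold change of 1 called 1692 genes as higher and 2302 as lower; 4 of the 9 genes were lower, and 0 other pathway genes were higher and 12 lower. The other pathway genes called higher were 18 with upper-quartile factors, 23 with library totals and 19 with the offset for GC content. Scaling moved the median over all genes from 0.09 (TMM) to 0.397 (upper quartile) and 0.496 (totals), and the share of calls that were higher from 51.9% to 64.6% and 68.7%. Among coding genes, 4119 were higher with the 3 offsets, 4324 with GC content alone and 3985 with the 3 offsets and the replicate block. HES6 reversed, uncalled, with the 3 offsets (0.16), with GC content alone (0.066) and with the block added (0.15). With the share of reads outside exons as a covariate, added after seeing the data, 6 genes were higher and 2 lower among all, with 0 of the 9 called (HES1 at 0.24 and HES6 at 0.59 reversed) and 0 other pathway genes higher and 0 lower. That share does not overlap between the groups, and the standard errors of the 9 rose to 0.46 to 1.08, while JAG1 stayed at -0.59 and DLL3 was at -1.21. With the longest transcript as length, NOTCH2 held 61.4% of the receptor level in GFP (54.2% with all exons) and 75.0% in ERRg (69.0%). Where the cause of a change is not given by the setting, it was not tested. JAG2 and HES6 rest on the fewest reads.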

Other observations

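With TMM, NOTCH2NLC, a partial copy of NOTCH2, went the other way from its parent gene. This copy was not in the fit with the offsets. It had 41, 36, 48 and 34 reads in GFP and 106, 141, 102 and 115 in ERRg, a rise from 1.46 ± 0.202 to 4.63 ± 0.488 CPM (SD, n = 4 each, log2 fold change 1.67, SE 0.17, edgeR adjusted p = 2.83e-08), while NOTCH2NLA and NOTCH2NLB are listed at 0 in all 8 libraries and NOTCH2NLR had at most 1 read. These genes were looked at after the values of NOTCH2 were seen, and reads shared between the copies and NOTCH2 cannot be placed.

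MAML1, a Mastermind coactivator made in most cells, had at most 2 reads in any library, which, as for DLL1, TUBB and FLOT1, is not taken as its level. MAML2 was at 70.4 ± 4.201 CPM in GFP and 96.4 ± 4.19 CPM in ERRg. In ERRg, the receptors were lower in replicates 1 and 2 than in 3 and 4, by mean CPM 24.5 and 34.8 for NOTCH1, 241 and 284 for NOTCH2, and 34.2 and 45.2 for NOTCH3. DLL3, JAG1, HES1 and HES6 had the same order of means, HES6 at 1.03 and 2.13 CPM. HEY1 (16.6 and 15.9 CPM) and JAG2 (0.855 and 0.796 CPM) did not share this order. Reads outside annotated exons were 48.3% and 47.3% in replicates 1 and 2 and 45.5% and 45.8% in replicates 3 and 4.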
